A study of Mus musculus with 24 samples.

Results

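The genes described here are 41 that carry fatty acids through the liver cell and burn them: proteins of uptake and activation, the carnitine shuttle and β-oxidation enzymes of mitochondria, their counterparts in peroxisomes, and Bdh1, which makes the ketone body β-hydroxybutyrate. They were chosen by name, with earlier results of these data known, and not by a threshold on measured values. All 41 are among the 50657 gene symbols of the count files, and 40 had a mean of at least 1 CPM over the 24 libraries (counts scaled to a common library size by TMM). Eci3, an isomerase of peroxisomes, averaged 0.0929 CPM with at most 2 counts in a library and was not tested. The lowest gene kept was Acot8, with a mean of 2.87 CPM. Of the 40 kept genes, 18 are mitochondrial, 15 peroxisomal, 4 belong to uptake and activation and 1 is ketogenic. Acot12 acts in the cytosol, and Acad11 was not assigned to a compartment.

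The libraries come from livers of wild-type mice (WT) and of mice with a hepatocyte-specific deletion of Egfr (KO), the gene of the epidermal growth factor receptor. The drug was acetaminophen at 500 mg/kg, an overdose that injures hepatocytes, and livers were taken at 0, 1, 3 and 12 h. Each of the 8 groups (WT and KO at every time) holds 3 mice, 1 library a mouse. The labels give no strain, age or sex, do not say which Cre line deleted Egfr, and do not say whether the 0 h mice received drug or vehicle. Livers at 6 and 24 h, named in the series text, are not analysed here. Since every mouse after 0 h had the drug, drug and time of day cannot be told apart in a change from 0 h. All changes of a genotype share their 0 h mice.

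Fatty acids enter hepatocytes through transport proteins, are bound in the cytosol by fatty acid binding protein and are turned into acyl-CoA. Long chains then pass into mitochondria as carnitine esters, and a cycle of dehydrogenation, hydration, a second dehydrogenation and thiolysis shortens them. The acetyl-CoA feeds the citric acid cycle or, in the fasted liver, ketone bodies. Peroxisomes shorten very long and branched chains by a parallel set of enzymes, and the nuclear receptor PPARA drives many genes of both routes.

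Gene counts ran from 3.54 to 7.58 M a library, and 29400 to 83900 of these fell on the 41 genes (0.758% to 1.28%). Mitochondrial ribosomal RNA took 48.4% to 49.2% of counts in WT and 44.8% to 50.4% in KO at 12 h, and at most 43.2% in the other groups. Egfr itself lay between 203 and 633 CPM in WT and between 43 and 335 CPM in KO libraries. The highest KO value belongs to the library labelled KO 1 h replicate 1, and the other 11 KO libraries had at most 271 CPM. That value, of the library labelled KO 3 h replicate 3, also lies within the WT range and above the WT 12 h livers (203 to 263 CPM). WT 3 h replicates 2 and 3 also stood apart from replicate 1, as shown for these genes below. Results that rest on these libraries are given with and without them. Hepatocyte markers (Alb, Ttr, Apoa1, Apob and Hnf4a) summed to 33000 to 54500 CPM in every library, whereas markers of T and NK cells reached 0.698 CPM, with Trbc2 at 0 throughout, and those of B cells 1.75 CPM. In whole liver, fewer cells of a type and less RNA per cell cannot be told apart.

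A gene is said to rise or fall where its adjusted p was under 0.05 in edgeR's quasi-likelihood test, with Benjamini-Hochberg adjustment over all 13204 tested genes. Changes are log2 fold changes with a standard error (SE). CPM takes no account of gene length, so levels are compared between livers and not between genes. By this measure 22 of the 40 fatty acid oxidation genes passed in none of the 13 comparisons, and no change from 0 h exceeded 1.5 in size. The share of all tested genes that passed in none was not computed, so this count does not compare them with other genes. Shares of all genes are given below for each comparison. The median SE was 0.134 to 0.137 for changes from 0 h, and at each time 35 to 38 of the 40 genes had an interval of 2 SE to either side that lay within 2-fold.

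In WT livers 3 of the 40 genes rose at 1 h and none fell, where 8.09% of all tested genes passed in either direction (4.09% higher, 4% lower). At 3 h 1 rose and 6 fell, against 14.1% of all genes (7.28% higher, 6.85% lower). At 12 h 2 rose and 3 fell, against 25.6% of all genes (13.4% higher, 12.2% lower). The medians of the 40 genes were 0.13, -0.22 and -0.09 at 1, 3 and 12 h, beside -0.01, 0.00 and -0.01 for all genes. The 12 h count depends on the scaling: with library size alone, which moved the median of all genes by -0.37, 1 rose and 26 fell. With the same scaling none rose and 12 fell at 3 h. Without WT 1 h replicate 3 1 gene passed at 1 h. At 12 h 2 passed without WT 0 h replicate 1, WT 12 h replicate 1 or WT 12 h replicate 2. Leaving out WT 0 h replicate 3 gave 3. Signs were mostly shared at 3 h, when 36 of the 40 estimates were negative, compared with 9 at 1 h and 24 at 12 h.

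In KO livers none rose and 6 fell at 1 h, against 7.58% of all genes (3.95% higher, 3.64% lower). At 3 h none rose and 1 fell, against 9.95% of all genes (5.11% higher, 4.84% lower). At 12 h 2 rose and 7 fell, against 28.8% of all genes (15.1% higher, 13.7% lower). The KO medians were -0.22, -0.14 and -0.13, beside 0.00, -0.02 and 0.00 for all genes. Negative estimates numbered 34, 30 and 28 of 40. Of the 1 h count, 9 fell without the library labelled KO 1 h replicate 1, whereas 1 fell without KO 0 h replicate 1 or 2, 2 without KO 0 h replicate 3, none without KO 1 h replicate 2 (Hacl1 rose) and none without KO 1 h replicate 3. Of the 3 h count, none passed without KO 0 h replicate 1, KO 3 h replicate 2 or KO 3 h replicate 3, and 2 did without KO 0 h replicate 3. With library size alone or RLE scaling 1 rose (Hacl1) and 1 fell at 3 h. Of the 12 h count, 5 passed without KO 0 h replicate 2 or 3, and with library size alone 1 rose and 23 fell. At an unadjusted p under 0.05 the 12 h share of these genes was 40% in KO, against 39.2% of all genes, and 22.5% in WT, against 36%. The KO share at 12 h was thus near that of all genes, and without a low-count filter 14 of the 40 were called. The 1 h change had opposite median signs in WT and KO.

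**Figure D1:**
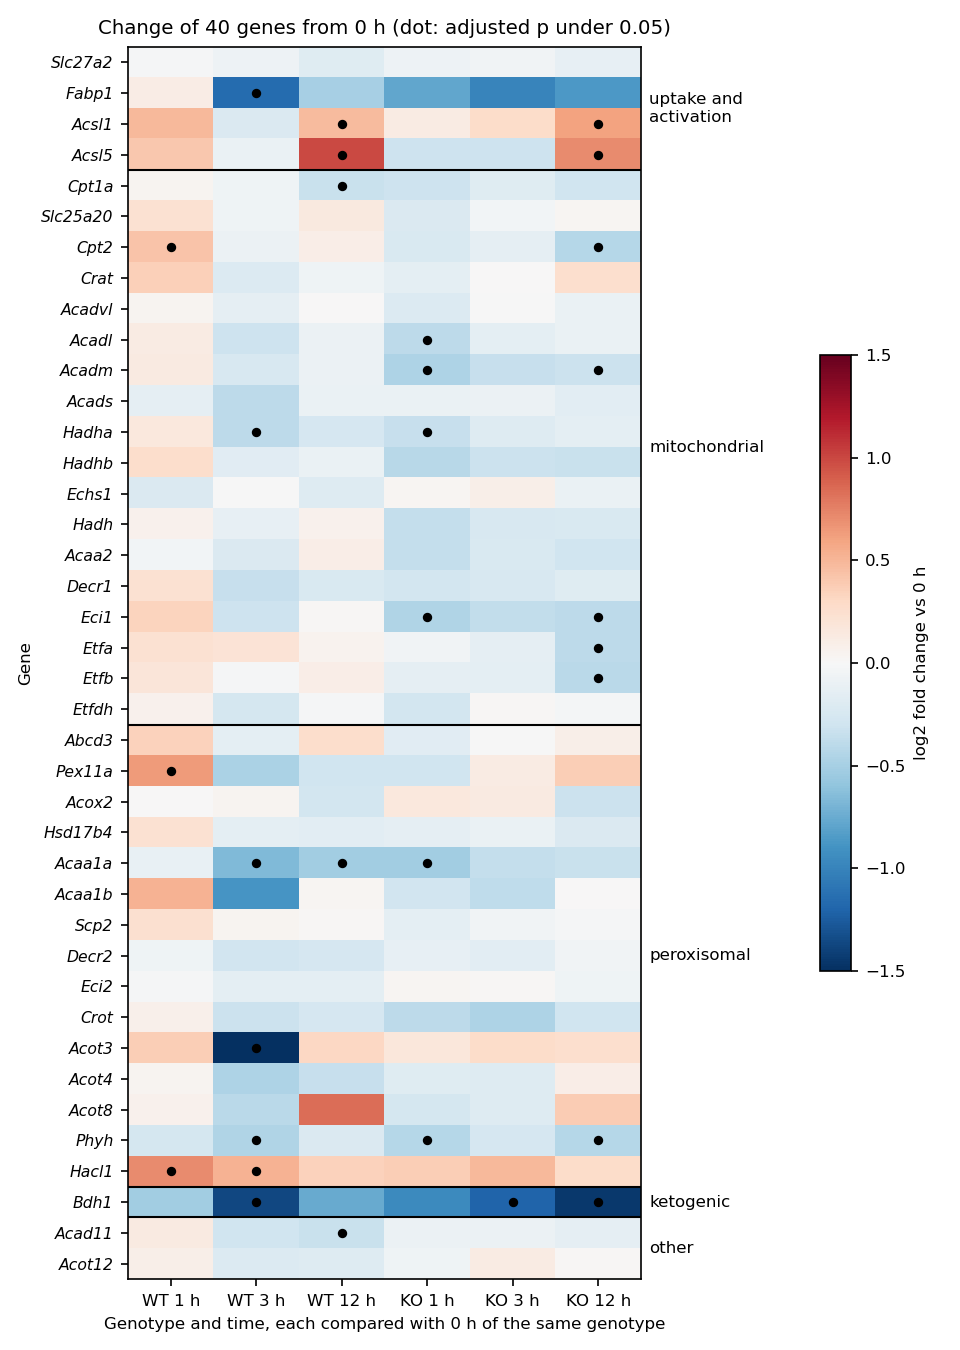
Heat map of log2 fold changes from 0 h of the same genotype (color scale from -1.5 to 1.5) for 40 genes ordered by role, with WT and KO at 1, 3 and 12 h as columns and a dot where the adjusted p was under 0.05. Bdh1 and Fabp1 are blue in most columns, Acsl1 and Acsl5 are red at 12 h in both genotypes, and WT at 1 h is the one column that is mostly red.

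Uptake, binding and activation gave both directions. Acsl5, which ligates coenzyme A to long-chain fatty acids, measured 88.6, 66.2 and 91.0 CPM in the 3 WT mice (0 h) and 156, 125 and 208 CPM (12 h). In KO mice it measured 93.2, 91.5 and 90.0 CPM (0 h) and 152, 120 and 177 CPM (12 h). All 6 livers at 12 h lay above all 6 at 0 h. The rise was 0.99 in WT (SE 0.173, adjusted p = 0.000107) and 0.71 in KO (SE 0.173, adjusted p = 0.00277), and both held when any 1 library was left out (highest adjusted p 0.0016 and 0.0254).

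At 1 h the same gene gave 121, 93.9 and 112 CPM in WT and 89.4, 67.3 and 65.8 CPM in KO, and at 3 h 67.7 to 89.9 and 63.0 to 82.1 CPM. The 1 h genotype groups did not overlap, but the difference did not pass the test. Acsl1, the main long-chain acyl-CoA synthetase of liver, rose at 12 h from 1020 to 1300 CPM to 1420 to 1790 CPM in WT (0.47, SE 0.158, adjusted p = 0.026) and from 979 to 1170 CPM to 1530 to 1810 CPM in KO (0.60, SE 0.158, adjusted p = 0.00406). The WT call was lost without WT 0 h replicate 1 or 2 or WT 12 h replicate 3 (highest adjusted p 0.149), whereas the KO call held without any 1 library. With library size alone in place of TMM, a scaling that moved the median of all genes by -0.37 in WT and -0.26 in KO at 12 h, the change was 0.11 in WT and 0.34 in KO and passed in neither (adjusted p = 0.602 and 0.0779). The WT level of Acsl1 was also high at 1 h (1330 to 1750 CPM), above every WT liver at 0 h, and lay at 765 to 1300 CPM at 3 h. That 1 h rise did not pass, but DESeq2 and either other low-count filter called it. KO livers gave 1110 to 1340 CPM (1 h) and 1270 to 1420 CPM (3 h), with no call. Slc27a2, a transporter that also activates very long chains, stayed between 1070 and 1400 CPM in all 24 livers and passed nowhere.

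Fabp1, the abundant fatty acid binding protein of hepatocyte cytosol, gave 980, 679 and 777 CPM in WT (0 h), 904, 635 and 1090 CPM (1 h), 436, 371 and 283 CPM (3 h), and 663, 392 and 665 CPM (12 h). It was low in all 3 WT livers at 3 h, with no overlap with 0 h. Its fall at 3 h was -1.16 (SE 0.335, adjusted p = 0.0274), a call lost without WT 0 h replicate 1 or 3 or WT 3 h replicate 2 or 3 (highest adjusted p 0.127). In KO it went from 1060, 884 and 737 CPM (0 h) to 749, 475 and 334 CPM (1 h), 593, 434 and 320 CPM (3 h) and 628, 309 and 537 CPM (12 h). The KO changes of -0.78, -0.99 and -0.87 did not pass, although every KO liver at 3 and 12 h lay below every KO liver at 0 h. DESeq2 called the KO falls at 3 and 12 h, and a fit with replicate number as a block called those at 1, 3 and 12 h. Library size alone and a fit of only the groups compared called the one at 12 h. The calls therefore do not show that the genotypes differ. The spread between mice of a group is wide for this gene.

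The promoter of Fabp1 is shown because it was the only 1 of the 37 genes found in the RefSeq promoter table (GRCm38.p6, a build other than the mm39 of the counts) to hold AGGNCANAGGNCA, a direct repeat of the kind that PPARA binds together with its partner RXRA. The 250 bases before each start site were searched on both strands. This repeat stood before 0.4% of the 27025 genes of that table, and the stricter AGGTCANAGGTCA was found in none of the 37 genes and in 0.0407% of all genes. The single element AGGTCA, which also lies within the repeats, stood before 9 of the 37 genes (24.3%), against 15.8% of all genes. These 9 were Slc27a2, Fabp1, Cpt1a, Acadvl, Acadm, Echs1, Scp2, Acot4 and Acot12. The repeat of Fabp1 lies on the minus strand with its first base 67 bases before the start (-67). The sequence covers chr6:71199629-71199878 on the plus strand, 5′ to 3′, with matches to either pattern in capitals.
Fabp1: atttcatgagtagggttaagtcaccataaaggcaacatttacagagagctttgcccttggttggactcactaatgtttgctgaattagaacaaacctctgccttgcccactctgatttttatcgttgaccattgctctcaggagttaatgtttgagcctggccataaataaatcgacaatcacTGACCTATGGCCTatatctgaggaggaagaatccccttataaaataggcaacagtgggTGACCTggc

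Of the carnitine shuttle, Cpt1a carries out the rate-limiting transfer of acyl groups to carnitine on the outer mitochondrial membrane. It measured 396, 313 and 375 CPM in WT (0 h) and 261, 292 and 305 CPM (12 h). It fell by 0.34 in WT at 12 h (SE 0.128, adjusted p = 0.0499), without overlap between the groups. That call lay at the threshold: it was lost in each fit that left out 1 WT library of 0 or 12 h except WT 0 h replicate 2 (highest adjusted p 0.201), and with RLE scaling (adjusted p = 0.0533). In KO the gene gave 311 to 405 CPM (0 h) and 255 to 339 CPM (12 h) and did not pass. Its promoter (chr19:3323051-3323300, plus strand, RefSeq GRCm38.p6) holds a single AGGTCA on the minus strand, in capitals, and is printed for comparison with the repeat of Fabp1.
Cpt1a: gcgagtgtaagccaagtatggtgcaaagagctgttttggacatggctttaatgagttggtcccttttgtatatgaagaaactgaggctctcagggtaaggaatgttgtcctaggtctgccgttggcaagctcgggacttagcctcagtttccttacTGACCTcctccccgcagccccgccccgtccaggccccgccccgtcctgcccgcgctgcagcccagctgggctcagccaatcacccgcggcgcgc

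Cpt2, which turns the carnitine esters back into acyl-CoA inside mitochondria, was the shuttle gene with the clearest differences. It gave 71.4, 65.4 and 60.5 CPM in WT (0 h), 88.9, 81.3 and 95.5 CPM (1 h), 70.6, 54.4 and 60.1 CPM (3 h), and 68.6, 65.9 and 77.0 CPM (12 h). In KO it gave 88.7, 87.4 and 86.2 CPM (0 h), 74.6, 71.9 and 77.4 CPM (1 h), 84.5, 77.3 and 76.1 CPM (3 h), and 63.3, 58.2 and 74.0 CPM (12 h). Thus WT was lowest at 0 and 3 h, while KO was highest at 0 h. The gene rose in WT at 1 h (0.43, SE 0.111, adjusted p = 0.0129), a call lost without WT 0 h replicate 3 or WT 1 h replicate 3 (highest adjusted p 0.0806). It fell in KO at 12 h (-0.43, SE 0.114, adjusted p = 0.00489), a call that held without any 1 library (highest adjusted p 0.0437). Slc25a20, the carnitine carrier of the inner membrane, and Crat, which handles short chains, passed in no comparison. Crat lay at 54.1 to 55.6 CPM in WT (1 h), above the 34.2 to 47.6 CPM of WT at 0 h.

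Of the 4 acyl-CoA dehydrogenases that open the mitochondrial cycle, Acadm (medium chains) and Acadl (long chains) fell in KO at 1 h. Acadm went from 326, 307 and 324 CPM (0 h) to 274, 211 and 212 CPM (1 h) in KO (-0.46, SE 0.12, adjusted p = 0.0135). In WT it went from 271, 284 and 267 CPM to 289, 304 and 311 CPM. The KO groups did not overlap, nor did those of WT, with opposite signs, and the WT change did not pass. KO livers gave 248, 252 and 254 CPM (3 h) and 269, 255 and 237 CPM (12 h), and the 12 h fall passed (-0.33, SE 0.12, adjusted p = 0.039). Acadl fell in KO at 1 h from 221 to 233 CPM to 152 to 189 CPM (-0.39, SE 0.112, adjusted p = 0.0285). WT livers gave 207 to 222 CPM (0 h), 225 to 243 CPM (1 h) and 156 to 197 CPM (3 h) for Acadl. Every WT liver at 3 h thus lay below every WT liver at 0 h. That WT change did not pass, but DESeq2, a fit with replicate number as a block and library size alone called it.

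These dehydrogenase calls rested on few mice. That of Acadm at 1 h was lost without KO 0 h replicate 1 or 3 or KO 1 h replicate 2 or 3 (highest adjusted p 0.121), and at 12 h without KO 12 h replicate 2 or 3 or any KO 0 h library (0.13). That of Acadl was lost without any KO 0 h library or KO 1 h replicate 2 or 3 (0.224). Both 1 h calls held without the library labelled KO 1 h replicate 1. Acadvl (very long chains) and Acads (short chains) passed in no comparison.

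The next steps of the cycle are run by the trifunctional protein, made of Hadha and Hadhb, and by Echs1, Hadh and Acaa2. Hadha gave 297, 327 and 299 CPM in WT (0 h), 300, 359 and 367 CPM (1 h), 245, 236 and 223 CPM (3 h), and 279, 241 and 254 CPM (12 h). In KO it gave 314, 298 and 314 CPM (0 h), 271, 231 and 229 CPM (1 h), 260, 277 and 271 CPM (3 h), and 287, 272 and 282 CPM (12 h). The lowest values therefore came at 3 h in WT and at 1 h in KO. The fall was -0.39 in WT at 3 h (SE 0.107, adjusted p = 0.0118) and -0.34 in KO at 1 h (SE 0.107, adjusted p = 0.0431). The first was lost without WT 0 h replicate 2 or WT 3 h replicate 3 (highest adjusted p 0.0678), the second without any KO 0 h library or KO 1 h replicate 2 or 3 (0.207). Its partner Hadhb and the other 3 enzymes passed in no comparison, and Echs1, which hydrates short chains, was higher in every KO than in every WT liver at 1 h, by 0.24 (SE 0.142, adjusted p = 0.634).

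Unsaturated chains need auxiliary enzymes, among them the isomerase Eci1 and the reductase Decr1. Eci1 gave 43.9, 41.3 and 39.7 CPM in KO (0 h), 35.4, 27.3 and 28.8 CPM (1 h), 34.4, 30.7 and 31.3 CPM (3 h), and 32.8, 32.9 and 29 CPM (12 h). Every later KO liver lay below every KO liver at 0 h. It fell by 0.45 at 1 h (SE 0.142, adjusted p = 0.0442) and by 0.39 at 12 h (SE 0.149, adjusted p = 0.0457). In WT it gave 37.5, 26.9 and 34.5 CPM (0 h), 45.3, 38.2 and 42.1 CPM (1 h), 33.3, 24.4 and 22.4 CPM (3 h) and 37.0, 27 and 36.8 CPM (12 h), with no call. Both KO calls were fragile: the first was lost when any library of KO 0 or 1 h but KO 1 h replicate 1 was left out (highest adjusted p 0.238), the second when any of the 6 KO libraries was (0.14). Decr1 passed in no comparison.

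Electrons from the dehydrogenases pass to the respiratory chain through electron transfer flavoprotein, made of Etfa and Etfb, and its reductase Etfdh. Etfb gave 86.0, 88.2 and 95.6 CPM in KO (0 h) and 92.3, 56.7 and 54.5 CPM (12 h). It fell by 0.41 (SE 0.137, adjusted p = 0.0241), but KO 12 h replicate 1 lay within the 0 h range, and without that library the change was -0.70. The call was lost without KO 0 h replicate 2 or 3 or KO 12 h replicate 2 or 3 (highest adjusted p 0.175). Etfa went from 93.6, 94.0 and 105 CPM to 72.7, 74.7 and 75.4 CPM in the same livers, without overlap (-0.40, SE 0.137, adjusted p = 0.0283), and its call was lost without KO 0 h replicate 3 or any KO 12 h library (0.117). In WT at 12 h Etfb and Etfa gave 77.0 to 88.2 and 77.8 to 90.0 CPM, within or near their 0 h ranges of 68.7 to 79.5 and 62.0 to 93.6 CPM, and neither passed. Etfdh passed in no comparison.

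Among peroxisomal genes, Abcd3 imports acyl-CoA and Pex11a takes part in peroxisome growth and division. Pex11a gave 57.2, 49.2 and 59.0 CPM in WT (0 h), 84.8, 72.0 and 102 CPM (1 h), 53.0, 31.3 and 34.1 CPM (3 h), and 42.4, 44.7 and 47.5 CPM (12 h). In KO it gave 66.3, 65.1 and 44.3 CPM (0 h), 51.6, 41.5 and 49.5 CPM (1 h), 60.9, 69.9 and 60.8 CPM (3 h), and 62.1, 90.2 and 73.7 CPM (12 h). WT was thus high at 1 h and low later, and KO lowest at 1 h and highest at 12 h. It rose in WT at 1 h (0.64, SE 0.172, adjusted p = 0.0194), a call lost without WT 0 h replicate 2 or WT 1 h replicate 3 (highest adjusted p 0.105). The KO change at 12 h was 0.37 (SE 0.176, adjusted p = 0.12). Abcd3 lay at 655 to 722 CPM in WT (1 h), above its 0 h range of 493 to 557 CPM, and passed in no comparison.

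Acaa1a, a thiolase that closes the peroxisomal cycle, fell in 3 comparisons with 0 h. It gave 28.9, 28.2 and 31.6 CPM in WT (0 h), 26.7, 23.4 and 32.2 CPM (1 h), 23.7, 15.6 and 16.4 CPM (3 h), and 19.0, 18.6 and 24.1 CPM (12 h). In KO it gave 28.8, 32.5 and 29.4 CPM (0 h), 22.6, 21.0 and 19.6 CPM (1 h), 24.3, 25.3 and 21.6 CPM (3 h), and 22.9, 27 and 21.7 CPM (12 h). In both genotypes every liver at 3 and 12 h lay below every liver at 0 h. The falls that passed were -0.66 in WT at 3 h (SE 0.147, adjusted p = 0.0023), -0.52 in WT at 12 h (SE 0.155, adjusted p = 0.0127) and -0.52 in KO at 1 h (SE 0.144, adjusted p = 0.019). The first held without any 1 library (highest adjusted p 0.0246), the second was lost without WT 12 h replicate 1 or 2 (0.0714), and the third without KO 0 h replicate 2 or KO 1 h replicate 2 or 3 (0.104).

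Its near copy Acaa1b, whose likeness to Acaa1a makes the counts of both uncertain, went from 99.8 to 139 CPM in WT (0 h) to 110, 46.7 and 42.3 CPM (3 h) (-0.88, SE 0.299, adjusted p = 0.0588). Counted on the gene's own strand, Acaa1b had 2.04 times as many reads, since a gene on the opposite strand makes part of its reads ambiguous, and its change was -0.82 (adjusted p = 0.0648). Acox2, Hsd17b4 and Scp2 of the peroxisomal cycle, and the auxiliary enzymes Decr2 and Eci2, passed in no comparison.

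Shortened chains leave peroxisomes as carnitine esters made by Crot or as free acids released by the thioesterases Acot3, Acot4 and Acot8. Acot3 gave 17.8, 24.6 and 23.7 CPM in WT (0 h), 15.4, 35.8 and 33.9 CPM (1 h), 5.37, 6.70 and 11.2 CPM (3 h), and 35.7, 17.2 and 29 CPM (12 h). All 3 WT livers at 3 h lay below every other WT liver. In KO it stayed between 8.51 and 22.4 CPM at all times. Its fall in WT at 3 h was -1.5 (SE 0.393, adjusted p = 0.0158), lost without WT 0 h replicate 3 or WT 3 h replicate 1 or 2 (highest adjusted p 0.0831). Acot3 lies in a family of near-identical thioesterase genes, so its counts are uncertain. Crot, Acot4 and Acot8 passed in no comparison, and the fitted changes of Acot8 rest on 6 to 24 reads a library.

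The pair of enzymes of α-oxidation, which removes 1 carbon from branched chains, moved in opposite directions in WT. Hacl1, the lyase, gave 133, 116 and 117 CPM in WT (0 h), 164, 252 and 184 CPM (1 h), 179, 174 and 173 CPM (3 h), and 170, 131 and 165 CPM (12 h). It rose at 1 h (0.71, SE 0.163, adjusted p = 0.00551) and at 3 h (0.52, SE 0.163, adjusted p = 0.0297), with every 1 and 3 h liver above every 0 h liver. The 1 h call was lost without WT 1 h replicate 2, the highest library (0.51, adjusted p = 0.064), and the 3 h call in every fit without 1 library but WT 0 h replicate 1 (highest adjusted p 0.0998). In KO, Hacl1 gave 111 to 143 CPM (0 h), 121 to 180 CPM (1 h), 158 to 205 CPM (3 h) and 123 to 168 CPM (12 h), and did not pass. Still, every KO liver at 3 h lay above every KO liver at 0 h. The KO rise at 3 h was called with RLE scaling, library size alone and either other low-count filter. It was also called without ribosomal RNA loci and with only the groups compared, so a rise is not particular to WT.

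Phyh, the hydroxylase that starts the pathway, gave 941, 898 and 927 CPM in WT (0 h) and 866, 634 and 531 CPM (3 h). It fell by 0.45 in WT at 3 h (SE 0.131, adjusted p = 0.0192). In KO it gave 1030, 1020 and 886 CPM (0 h), 767, 701 and 722 CPM (1 h), 773, 898 and 801 CPM (3 h), and 723, 731 and 737 CPM (12 h). It fell in KO by 0.42 at 1 h (SE 0.131, adjusted p = 0.0407) and by 0.42 at 12 h (SE 0.131, adjusted p = 0.0142), in each case without overlap with 0 h. The WT livers of 1 h (713 to 831 CPM) and of 12 h (774 to 808 CPM) likewise all lay below those of 0 h. Neither of these WT changes passed, but a lower level at these times is not particular to KO. The WT call was lost without WT 0 h replicate 1 or WT 3 h replicate 2 or 3 (highest adjusted p 0.185), the 1 h call without any library of KO 0 or 1 h but KO 0 h replicate 3 (0.169), and the 12 h call without KO 0 h replicate 1 or 2 (0.0577).

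Bdh1, which reduces acetoacetate to β-hydroxybutyrate in mitochondria, had the largest fall in KO. It gave 71.1, 58.2 and 63.6 CPM in WT (0 h), 42.5, 41.4 and 51.2 CPM (1 h), 29.5, 28.2 and 17.5 CPM (3 h), and 42.1, 27 and 45.4 CPM (12 h). In KO it gave 74.7, 66.1 and 61.0 CPM (0 h), 50.5, 35.3 and 19.3 CPM (1 h), 43.1, 22.9 and 20.9 CPM (3 h), and 26.7, 19.4 and 28.6 CPM (12 h). Every liver after 0 h, in either genotype, lay below every liver at 0 h. The fall was -1.36 in WT at 3 h (SE 0.313, adjusted p = 0.00673), -1.20 in KO at 3 h (SE 0.308, adjusted p = 0.0189) and -1.44 in KO at 12 h (SE 0.33, adjusted p = 0.00299). Those of WT at 3 h and KO at 12 h held without any 1 library (highest adjusted p 0.0451 and 0.0231), and that of KO at 3 h was lost without KO 0 h replicate 1 or KO 3 h replicate 2 or 3 (0.11). The changes of WT at 1 and 12 h (-0.52 and -0.76) and of KO at 1 h (-0.95) did not pass. The table has 2 start sites for Bdh1, and neither 250-base stretch holds the patterns searched, which is why all letters are lower case. They are printed as the promoters of the gene with the largest KO fall, chr16:31422047-31422296 and chr16:31428503-31428752, both on the plus strand.
Bdh1, first start: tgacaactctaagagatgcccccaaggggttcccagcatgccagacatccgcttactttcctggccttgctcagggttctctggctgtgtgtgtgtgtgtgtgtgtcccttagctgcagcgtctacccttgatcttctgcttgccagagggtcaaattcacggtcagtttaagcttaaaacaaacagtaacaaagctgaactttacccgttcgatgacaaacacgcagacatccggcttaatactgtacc
Bdh1, second start: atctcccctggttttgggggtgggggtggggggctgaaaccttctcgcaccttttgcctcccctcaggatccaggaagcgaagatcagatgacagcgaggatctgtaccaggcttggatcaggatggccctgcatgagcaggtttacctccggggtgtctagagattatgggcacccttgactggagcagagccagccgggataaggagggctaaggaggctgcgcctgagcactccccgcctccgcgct

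Acat1, a mitochondrial thiolase that joins acetyl-CoA units, is not among the 41 but acts on the product of the cycle. It gave 216, 181 and 195 CPM in WT (0 h) and 167, 136 and 160 CPM (12 h), and 243, 244 and 262 CPM against 130, 155 and 152 CPM in KO. In both genotypes every liver at 12 h lay below every liver at 0 h. It fell in KO by 0.46 at 1 h (adjusted p = 0.0216), 0.45 at 3 h (adjusted p = 0.0231) and 0.77 at 12 h (adjusted p = 3.38e-05), and in WT by 0.36 at 12 h (adjusted p = 0.0424). Neither Acat1 nor Acot12, a cytosolic acetyl-CoA thioesterase, differed between genotypes past the threshold.

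Acad11, a further member of the acyl-CoA dehydrogenase family, gave 285, 222 and 263 CPM in WT (0 h) and 210, 179 and 222 CPM (12 h). It fell by 0.33 (SE 0.123, adjusted p = 0.044) although the highest 12 h and the lowest 0 h liver both lay at 222 CPM. The call was lost without WT 0 h replicate 1 or 3 or WT 12 h replicate 1 or 2 (highest adjusted p 0.219). In KO it stayed between 215 and 270 CPM and passed nowhere.

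**Figure D2:**
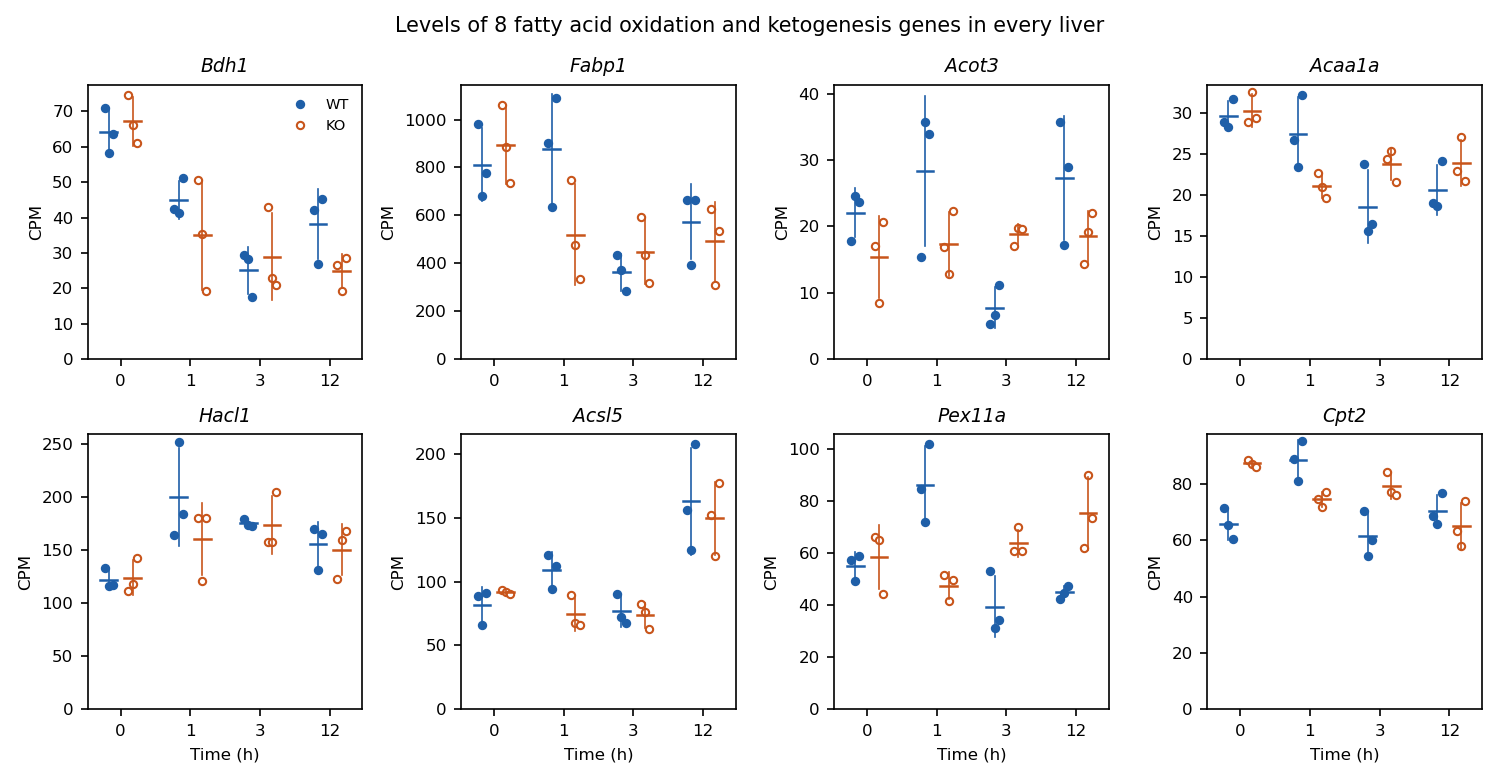
CPM (TMM-scaled) of 8 genes against time in hours, each point 1 liver (WT filled, KO open), with a bar for the group mean and a line for 1 SD to either side, n = 3. Bdh1 lies below its 0 h values in every later liver, Acsl5 is high at 12 h in both genotypes, and Pex11a is highest at 1 h in WT and at 12 h in KO.

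Of the WT livers at 3 h, replicate 1 had higher compartment means than replicates 2 and 3. Relative to the mean of WT at 0 h, the mean log2(CPM + 1) of the 18 mitochondrial genes was 0.028 in WT 3 h replicate 1 but -0.258 and -0.295 in replicates 2 and 3, and that of the 15 peroxisomal genes was -0.156 against -0.440 and -0.466. Without replicates 2 and 3, which leaves 1 library whose spread is taken from the other groups, none of the 40 genes passed and their median was 0.01. The changes were then -1.13 for Bdh1 (adjusted p = 0.182), -2.02 for Acot3 (0.0611), -0.90 for Fabp1 (0.389), -0.32 for Acaa1a (0.385), -0.33 for Hadha (0.242), -0.09 for Phyh (0.82) and 0.55 for Hacl1 (0.181). Of the 6 genes that fell in the whole group, Acot3 thus lay further from 0 h in replicate 1 alone, Bdh1, Fabp1 and Hadha lay somewhat closer (-1.36, -1.16 and -0.39 in the whole group), and Acaa1a and Phyh lay much closer (-0.66 and -0.45). Hacl1, which rose, was about as far from 0 h. A call missed with 1 library does not show a smaller change. Without replicate 1 instead, 17 genes fell, and without replicate 2 or replicate 3 alone 3 fell each. Without WT 0 h replicate 3, 4 fell. Red cell markers summed to 77.5 to 315 CPM in WT (3 h) and to 40.8 to 139 CPM in all other livers, and hepatocyte markers to 45500 to 54500 CPM against 33900 to 38300 CPM (0 h). The hepatocyte sum follows Alb, with a mean of 33400 CPM in WT at 3 h against 19700 CPM at 0 h. Ttr and Apoa1 were also higher, whereas Apob (12900 against 12800 CPM) and Hnf4a (319 against 325 CPM) hardly moved. The part of these markers in the result was not tested.

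Mitochondrial and peroxisomal genes were set side by side as means over each compartment, as a description without a test. In WT the mitochondrial mean was 0.145 ± 0.055 at 1 h (SD, n = 3), -0.175 ± 0.177 at 3 h and -0.044 ± 0.096 at 12 h, relative to WT at 0 h. The peroxisomal mean was 0.172 ± 0.116, -0.354 ± 0.172 and -0.061 ± 0.173. Both group means thus went up at 1 h, down at 3 h and back near the start at 12 h, although WT 3 h replicate 1 stayed within the 0 h range for the mitochondrial genes. The difference, peroxisomal minus mitochondrial, was -0.184 to -0.171 in the 3 WT livers at 3 h, against -0.009 to 0.015 at 0 h. It was alike in the livers that otherwise stood apart, but is not shown to hold across the compartment. Acot3 and Acaa1b, whose counts are uncertain, are part of it, and their weight in it was not measured. In these livers Acot3 gave 5.37, 6.7 and 11.2 CPM, against 17.8 to 24.6 CPM at 0 h. Acaa1b gave 110, 46.7 and 42.3 CPM, against 99.8 to 139 CPM. The difference was not computed without these genes. In KO the difference between compartments was -0.163 to -0.140 at 0 h, where the mitochondrial mean was 0.139 to 0.174 and the peroxisomal mean -0.002 to 0.028. KO livers at 0 h lay above all WT 0 h livers for the mitochondrial mean, whose WT range was -0.102 to 0.067.

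In KO the mitochondrial mean dropped to -0.103 ± 0.124 at 1 h and stood at 0.009 ± 0.036 at 3 h and -0.046 ± 0.031 at 12 h. The peroxisomal mean was -0.138 ± 0.156, -0.060 ± 0.048 and -0.016 ± 0.076. The library labelled KO 1 h replicate 1 gave 0.031 and 0.027 for the 2 means, above the other KO 1 h livers (-0.212 to -0.129 and -0.283 to -0.159). Falls that passed in KO were mostly mitochondrial: 4 of 6 at 1 h and 5 of 7 at 12 h, when 2 of 6 and 1 of 7 were peroxisomal. In WT 1 of the 6 falls at 3 h was mitochondrial and 3 were peroxisomal. With 18 mitochondrial and 15 peroxisomal genes tested, no test of the compartments against each other was made.

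**Figure D3:**
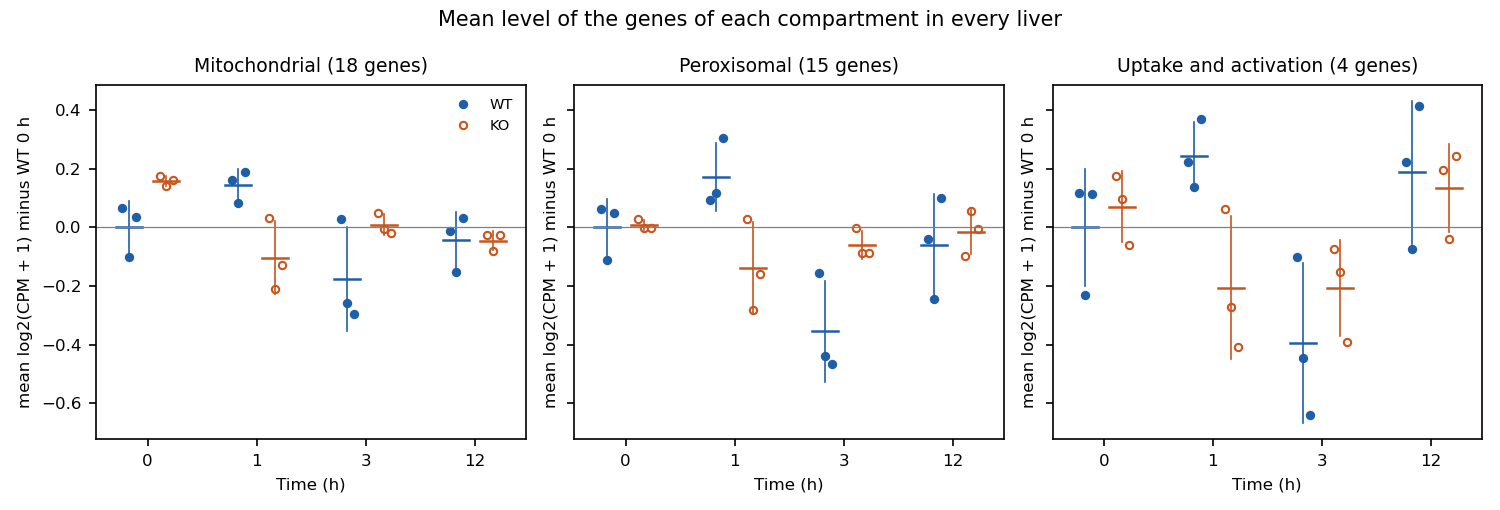
Mean log2(CPM + 1) of the genes of each compartment minus the mean of WT at 0 h, against time in hours, with each point 1 liver (WT filled, KO open), a bar for the group mean and a line for 1 SD, n = 3. WT group means go up at 1 h and down at 3 h in all 3 panels, with 1 WT 3 h liver above the other 2 and, at 0.028, within the 0 h range in the mitochondrial panel, while KO means of the mitochondrial and peroxisomal genes are lowest at 1 h.

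The contrast of KO with WT, the main one of the study, was made at each time. At 0 h none of the 40 genes passed, where 0.0151% of all genes did. At an unadjusted p under 0.05, 3 were higher (7.5%, against 8.12% of all genes), and DESeq2 also called none. Still, 5 genes were higher in all 3 KO livers than in all 3 WT livers, and all 5 were mitochondrial: Cpt2 (0.41, SE 0.111, adjusted p = 0.191), Eci1 (0.33, SE 0.141, adjusted p = 0.539), Etfb (0.25), Hadh (0.22) and Acadm (0.22). None was lower in all. Among all tested genes 7.08% were separated upward and 7.29% downward.

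At 1 h 2 genes were lower in KO and none higher, where 0.492% of all genes passed (0.356% lower). Pex11a, at 51.6, 41.5 and 49.5 CPM in KO against 84.8, 72.0 and 102 CPM in WT, differed by -0.86 (SE 0.173, adjusted p = 0.0147). Hadha, at 271, 231 and 229 CPM against 300, 359 and 367 CPM, differed by -0.49 (SE 0.107, adjusted p = 0.0219). In both genes all KO livers lay below all WT livers. Pex11a was lost without WT 1 h replicate 3 or KO 1 h replicate 2 (highest adjusted p 0.135), and Hadha without WT 1 h replicate 2 or 3 or KO 1 h replicate 2 or 3 (0.196).

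The 1 h difference was broad in sign. Of the 40 genes 37 had a negative estimate (92.5%, against 48.3% of all genes), with a median of -0.31 beside 0.01 for all genes. At an unadjusted p under 0.05, 20 were lower and none higher (50%, against 9.76% of all genes passing in either direction). In 18 genes every KO liver lay below every WT liver and in 1, Echs1, above, where 7.72% and 7.17% of all genes did so. Of the 18, 11 were mitochondrial and 5 peroxisomal. The medians were -0.31 for mitochondrial, -0.28 for peroxisomal and -0.47 for the 4 uptake and activation genes. All these genes were measured in the same 6 livers, so they are not independent of each other. Without the library labelled KO 1 h replicate 1, whose Egfr level goes against its label, 5 genes passed, Crot, Acadm and Acadl in addition, and the median was -0.34. Without KO 1 h replicate 2 or WT 1 h replicate 3 none passed, and without KO 1 h replicate 3 or WT 1 h replicate 2 1 did.

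**Figure D4:**
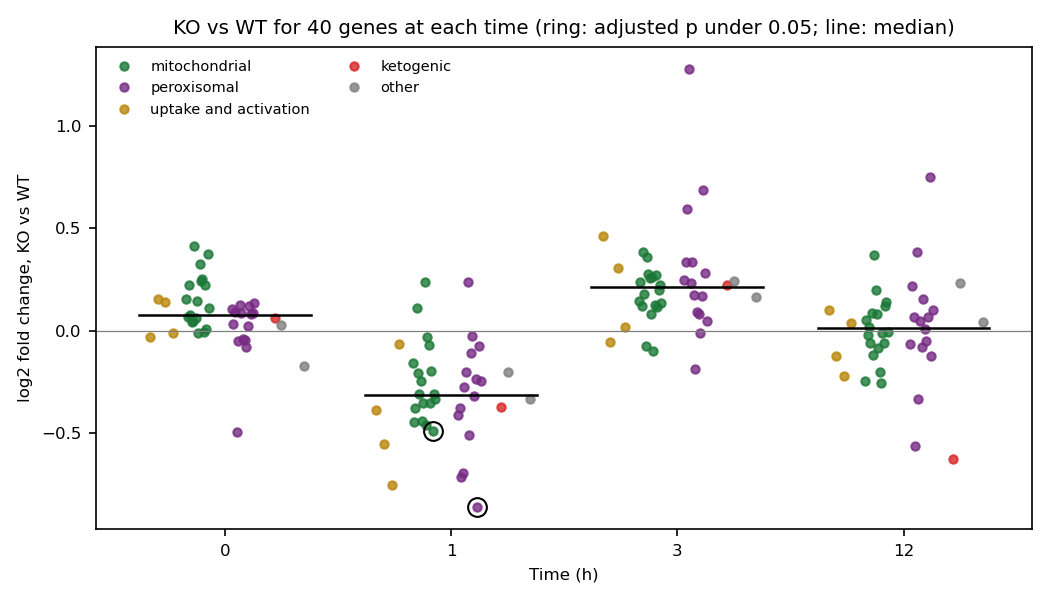
Log2 fold change of KO against WT at 0, 1, 3 and 12 h for 40 genes, each point 1 gene colored by compartment, with a line for the median and a ring where the adjusted p was under 0.05. The medians are 0.08, -0.31, 0.21 and 0.01, and the 2 rings, Hadha and Pex11a, are both at 1 h.

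At 3 h no gene passed, where 0.977% of all genes did (0.326% higher, 0.651% lower). The median was 0.21 beside -0.01 for all genes, 35 of 40 estimates were positive, and 9 were higher at an unadjusted p under 0.05 (22.5%, against 10.4% of all genes). In 7 genes every KO liver lay above every WT liver and in none below, where 7.63% and 7.89% of all genes did so. One such gene was Acot3 (17.1, 19.8 and 19.6 CPM against 5.37, 6.70 and 11.2 CPM), with a difference of 1.28 (SE 0.401, adjusted p = 0.199), and another was Pex11a, with 0.68 (SE 0.177, adjusted p = 0.0652). DESeq2 called both. The sign rests on WT 3 h replicates 2 and 3: without them the median was 0.00, and with them but not replicate 1 it was 0.33 and 7 genes passed. Without the library labelled KO 3 h replicate 3 no gene passed and the median was 0.215. At 12 h no gene passed, where 0.053% of all genes did, the median was 0.01, and 2 were higher at an unadjusted p under 0.05 (5%, against 10.3%). DESeq2 called none at 12 h, and without KO 12 h replicate 1 Etfb was lower in KO. Pex11a, at 62.1, 90.2 and 73.7 CPM in KO against 42.4 to 47.5 CPM in WT, had the largest difference (0.75, SE 0.185, adjusted p = 0.133). In 36 to 39 of the 40 genes at each time the interval of the genotype difference lay within 2-fold.

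The response of KO minus that of WT, the interaction of genotype and time, asks whether the change from 0 h itself differed. At 1 h 1 gene passed, where 0.454% of all genes did (0.159% higher, 0.295% lower). Cpt2 went up in WT (0.43) and down in KO (-0.23), a difference of -0.66 (SE 0.157, adjusted p = 0.0488). KO livers also began higher, at 87.4 ± 1.24 CPM against 65.8 ± 5.47 CPM (SD, n = 3), and at 1 h lay at 74.6 ± 2.75 against 88.6 ± 7.11 CPM. The call lay at the threshold and was lost in 11 of the 12 fits that left out 1 library of the 4 groups, all but that without WT 1 h replicate 2 (highest adjusted p 0.157). Next came Eci1 (-0.79, SE 0.2, adjusted p = 0.0693) and Pex11a (-0.94, SE 0.245, adjusted p = 0.0886). Without the library labelled KO 1 h replicate 1, Eci1 and Acadm passed and Cpt2 did not. The median was -0.36 beside 0.01 for all genes, with 14 genes lower at an unadjusted p under 0.05 (35%, against 10.9% of all genes).

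At 3 h no response difference passed, where 0.151% of all genes did, 0.0757% in each direction. Here 3 genes were higher at an unadjusted p under 0.05 (7.5%, against 8.67%), and DESeq2 called 1, Acot3 (1.77, SE 0.536, adjusted p = 0.255 in edgeR). Without WT 3 h replicate 1, Acsl1 and Pex11a passed, and without the library labelled KO 3 h replicate 3 none did. At 12 h none passed either, where 0.0227% of all genes did (0.0151% higher, 0.00757% lower). There 5 were under an unadjusted p of 0.05, 1 higher and 4 lower (12.5%, against 10.2%), and DESeq2 called none. Without KO 12 h replicate 1 Etfb passed, lower in KO. Among the 5 was Cpt2 (-0.53, SE 0.162, adjusted p = 0.25). These differences and the genotype comparisons use the same 1, 3 and 12 h livers and are not separate evidence.

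Further genes of the pathway, 43 tested of a list of enzymes, transporters and regulators that are not among the 41, are given for context. The list and that of PPARA targets were chosen with earlier results of these data known. In WT 7 rose and 1 fell at 1 h, 2 rose and 4 fell at 3 h, and 2 rose and 7 fell at 12 h. In KO none rose and 4 fell at 1 h, 1 rose and 3 fell at 3 h, and 2 rose and 12 fell at 12 h. The shares of all genes that passed were 8.09%, 14.1% and 25.6% in WT and 7.58%, 9.95% and 28.8% in KO at these times. Without WT 3 h replicates 2 and 3 1 rose and 1 fell in WT at 3 h. With library size alone 2 rose and 21 fell at 12 h in each genotype. Ppara, the receptor itself, gave 262, 231 and 260 CPM in WT (0 h) and 91.7, 87.3 and 102 CPM (12 h), and 238, 261 and 206 CPM against 75.6, 84.3 and 95.7 CPM in KO. It fell by 1.42 (adjusted p = 1.72e-07) and 1.47 (adjusted p = 1.07e-07).

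Ehhadh, the bifunctional enzyme of the peroxisomal cycle, gave 1070, 753 and 1280 CPM in WT (0 h), 1800, 1470 and 2080 CPM (1 h) and 770, 507 and 502 CPM (3 h). In WT it rose at 1 h (0.78, SE 0.187, adjusted p = 0.00789) and fell at 3 h (-0.80, SE 0.187, adjusted p = 0.004). KO livers gave 813 to 1000 CPM (0 h), 722 to 786 CPM (1 h), 681 to 841 CPM (3 h) and 981 to 1280 CPM (12 h). At 12 h every KO liver lay above every WT liver (539 to 813 CPM), but the difference did not pass. At 1 h Ehhadh was lower in KO than in WT by 1.23 on the log2 scale (-1.23, SE 0.189, adjusted p = 0.00144). Acot2, a mitochondrial thioesterase in the same family as Acot3, rose in WT at 1 h from 8.20 to 12.8 CPM to 25 to 49.9 CPM (1.83, SE 0.331, adjusted p = 0.00164) and was lower in KO (-1.64, SE 0.324, adjusted p = 0.0246). Of the 43 genes these 2 passed between genotypes, both at 1 h. Sirt3, a mitochondrial deacetylase, fell at 12 h by 0.72 in WT (adjusted p = 0.0097) and by 0.94 in KO (adjusted p = 0.00076).

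Of 18 tested PPARA targets, some of which are also in the pathway list, 8 rose and none fell in WT at 1 h, 2 rose and 6 fell at 3 h, and 5 rose and 4 fell at 12 h. In KO none rose and 1 fell at 1 h, 2 rose and 1 fell at 3 h, and 5 rose and 1 fell at 12 h. Without WT 3 h replicates 2 and 3, 3 rose and 1 fell in WT at 3 h. With library size alone 4 rose and 7 fell at 12 h in WT, and 5 rose and 3 fell in KO. At 1 h 4 targets were lower in KO than in WT and none higher: Plin2, Mgll, Ehhadh and Acot2. Without the library labelled KO 1 h replicate 1 this count was 3. At an unadjusted p under 0.05, 12 of the 18 targets were lower in KO at 1 h and none higher (66.7%, against 9.76% of all genes). Later the direction was mostly the other. At 3 h 7 were higher and 2 lower (50%, against 10.4%), and at 12 h 9 were higher and none lower (50%, against 10.3%). After adjustment no tested gene was higher in KO at 12 h. Pdk4, the kinase that shuts off pyruvate oxidation, rose in WT by 2.59, 2.00 and 3.43 at 1, 3 and 12 h (adjusted p = 0.00625, 0.0207 and 0.000184) and in KO by 1.80 at 3 h and 4.67 at 12 h (adjusted p = 0.0476 and 8.24e-06). Its WT livers gave 7.22, 10.1 and 12.7 CPM (0 h), 50.5, 33.5 and 97.5 CPM (1 h), and 58.2, 51.1 and 212 CPM (12 h). The larger size of the WT rise at 12 h than at 1 h thus rests mainly on 1 liver. In KO, Pdk4 gave 8.87, 7.46 and 12.4 CPM (0 h) and 42.5, 23.7 and 21.2 CPM (1 h). Every KO liver at 1 h lay above every KO liver at 0 h, although that change did not pass. Among the 40 fatty acid oxidation genes, for comparison, the largest rise from 0 h was the 0.99 of Acsl5.

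Pericentral hepatocyte markers (Glul, Slc1a2, Cyp2e1, Oat and Rgn), the zone that acetaminophen injures first, summed to 4090 to 5160 CPM in WT (0 h) and 2150 to 2340 CPM (12 h), and to 2950 to 5560 and 1370 to 2340 CPM in KO. Periportal markers (Cps1, Sds, Hal, Pck1 and Hsd17b13), from the zone where fatty acid oxidation is held to be strongest, summed to 6840 to 6990 CPM in WT (0 h) and 5270 to 5850 CPM (12 h), and to 5810 to 7630 and 5460 to 6870 CPM in KO. The sums follow the genes of highest counts. From 0 to 12 h in WT the means of Cps1, Hal and Pck1 went down, but Sds (39 to 73.3 CPM) and Hsd17b13 (175 to 283 CPM) went up. In KO, Cps1 and Hsd17b13 went up and the others down. Of the pericentral markers, Rgn went up in WT (76.8 to 95.5 CPM) and the others down. The part of these zone markers in the 12 h falls of Bdh1 and the other genes was not tested. Neutrophil markers stayed at or below 5.56 CPM in all livers and Kupffer cell markers between 39 and 121 CPM.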

How the data were processed

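Bulk RNA of 24 mouse livers was sequenced on an AVITI instrument after TRIzol extraction, as polyA RNA, per the labels' protocols. The authors deposited raw read counts per gene symbol, from STAR alignments to mm39 per the submitters' processing notes. Neither the version of STAR nor the gene annotation is given in the sources used here. Of the 3 count columns of a file the unstranded one was used. The 4 lines that name no gene were left out of all library sizes; the ambiguous line alone held 26.3% to 30.8% of reads. Reads that touch 2 genes are in that line, which lowers overlapping genes such as Acaa1b and Acot8 (gene-strand counts 2.04 and 2.78 times as high).

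Counts were fitted with edgeR 4.0.16 in R 4.3.3: filterByExpr (13204 genes), TMM, robust quasi-likelihood with 1 mean per group over all 24 libraries, 13 contrasts, two-sided, Benjamini-Hochberg over all tested genes at 0.05. SE is the size of the fold change over the root of F. CPM uses TMM-scaled library sizes, and compartment means use log2(CPM + 1). Genes of the 41 were named freely; per-liver values went to called genes of smallest adjusted p in their step, and list genes were named by smallest p in a comparison. Some list genes are not reported here. The members and lists were chosen with earlier results of these data known. Alternatives were RLE scaling, library size alone, other low-count filters, the replicate block, gene-strand counts, removal of ribosomal RNA loci, only the groups compared, DESeq2 1.42.0, WT 3 h replicates 2 and 3 left out, and each library left out. Scripts were tested on simulated data. Replicates are individual mice per the labels' protocols.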

Additional observations from a re-analysis of the deposited data

Results flagged for a closer look

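Of the 41 genes and both lists, the change from 0 to 1 h differed between genotypes for 3 genes by edgeR's interaction test, which 0.454% of all tested genes passed. Among the 41 genes it was Cpt2, the inner carnitine palmitoyltransferase, whose KO response minus WT response was -0.66 (SE 0.157, adjusted p = 0.0488). The call was lost in 11 of the 12 fits that left out 1 library. Among PPARA targets the difference was -1.10 for Mgll, a lipase of monoacylglycerols (SE 0.162, adjusted p = 0.00156), and -1.36 for Plin2, a coat protein of lipid droplets (SE 0.24, adjusted p = 0.00634). Mgll gave 64.7, 56.1 and 57.0 CPM in WT at 0 h and 103, 86.7 and 95.0 CPM at 1 h, against 86.6, 74.3 and 67.3 CPM and 56.8, 58.9 and 54.2 CPM in KO. Plin2 gave 136, 120 and 152 CPM in WT at 0 h and 314, 252 and 421 CPM at 1 h, against 161, 168 and 146 CPM and 127, 137 and 182 CPM in KO. For both, the WT groups moved up without overlap. Groups of 3 livers are too small for the check of single libraries that stand far from the rest of their group.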

How the results depend on the processing

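Of 34 called changes of fatty acid oxidation genes, 7 held without any 1 library: Bdh1 (WT at 3 h, KO at 12 h), Acaa1a (WT at 3 h), Acsl5 (WT and KO at 12 h), Acsl1 and Cpt2 (KO at 12 h). The other 27 were lost without at least 1. In the other settings 267 of these values stayed past the threshold, 46 did not, and none changed sign. The numbers of genes that passed when 1 library was left out were 1 to 4, 3 to 17 and 2 to 5 for WT at 1, 3 and 12 h, 0 to 9, 0 to 2 and 5 to 8 for KO, 0, 0 to 5, 0 to 7 and 0 to 1 for KO against WT at 0, 1, 3 and 12 h, and 0 to 2, 0 to 2 and 0 to 1 for the response differences. With library size alone 12 passed for WT at 3 h, 27 at 12 h, 2 for KO at 3 h and 24 at 12 h. With no low-count filter 6 passed for WT at 1 h, 2 for KO at 3 h, 14 at 12 h, 6, 2 and 1 for KO against WT at 1, 3 and 12 h and 6 for the response difference at 1 h. With a filter of 1 CPM in 3 libraries, with RLE scaling and with ribosomal RNA loci left out, KO at 3 h gave 2 and the response difference at 1 h 0. Gene-strand counts gave 3 for WT at 12 h, 3 for KO at 1 h and 0 for the response difference at 1 h. With only the groups compared, KO gave 3 at 1 h and 6 at 3 h, KO against WT 1 at each of 1, 3 and 12 h, and the response difference at 1 h 0. DESeq2 gave 3 for KO at 3 h, 2 for KO against WT at 3 h, and 6 and 1 for the response differences at 1 and 3 h. Without WT 3 h replicates 2 and 3, 0 passed for WT at 3 h. The cause of these changes was not tested.

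Replicate numbers did not pair the livers: deviations of same-numbered libraries correlated by -0.194 to 0.207, all 3 above 0.1 in 0 of 10 comparisons, and in 1 of 10 every library correlated best with its own number. With the replicate block 11 genes passed for WT at 3 h, 3 for KO at 3 h and 2 for the response difference at 1 h. Depth limits the lowest genes: Acot8 rests on 6 to 24 reads a library.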
